A study of Mus musculus with 57 samples.

Results

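Immediate early genes are transcribed within minutes of a stimulus, without new protein synthesis. The set described here held 10 named members, Fos, Fosb, Jun, Junb, Egr1, Npas4, Nr4a1, Arc, Ier2 and Dusp1, given as a list of gene symbols. All 10 were found, each as 1 of the 21118 genes of a count table of ribosome-bound RNA from mouse cerebral cortex. The table held 53 libraries, 1 for each animal, from P1 (postnatal day 1, n = 8), P4 (n = 8), P7 (n = 12), P14 (n = 10), P35 (n = 6) and adult mice (n = 9), and females and males were pooled within an age. Every animal at every age carried the Aldh1l1-L10-GFP transgene on the C57BL/6 strain, so no group lacked the tag, and none was treated. The tag, a ribosomal protein fused to green fluorescent protein, was driven by regulatory sequence of Aldh1l1, a gene of astrocytes, and tagged polysomes were pulled from cortical homogenate with an antibody to GFP (translating ribosome affinity purification, TRAP). RNA in the homogenate that was not pulled down was not analysed here. Libraries are named by age, labelled sex and the number in their label, as in "adult male 60".

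Most members encode transcription factors. Fos and Jun family proteins pair to form AP-1, Egr1 is a zinc finger factor, Npas4 a factor that responds to calcium entry in neurons, and Nr4a1 an orphan nuclear receptor. Arc encodes a synaptic protein, Ier2 a nuclear protein of the early response, and Dusp1 a phosphatase that shuts off MAP kinases. In the cortex these genes are best known as marks of recently active neurons, and astrocytes also induce several of them when stimulated. Their promoters are commonly controlled by CREB, which binds the cyclic AMP response element (CRE), and by serum response factor, which binds the CArG box.

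Library totals lay between 14768178 and 48541139 counts (median 24033399). In 3 libraries, P1 female 4, P7 female 40 and P14 male 4, the fewest genes had at least 10 counts (10085, 13834 and 14530, against 15531 or more elsewhere). Sex-linked genes went against the label in 7 libraries. The number in a library's name recurs between ages, and its first digit (1, 2, 3, 4 or 6) is called a replicate set here. At P7, 4 libraries labelled S1 or S2 came from a second sequencing run alone and form set S. What the other numbers mark is not given in the sources used here. All fitted differences below have age and replicate set in 1 model of the 53 libraries (edgeR quasi-likelihood F test, adjusted p by Benjamini-Hochberg over 21118 genes, threshold 0.05). Set S occurs at P7 only, so its own term takes up the level of its 4 libraries. Fitted changes to and from P7 rest on the P7 libraries of the other sets, and set S bears only on the spread. Levels are CPM, counts divided by the TMM-scaled total of the library and brought to 1 common total. No source used here says that animals of a group came from separate litters, so the p-values measure the spread between these animals.

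The labelled cell type was checked against marker genes. All 18 markers of mature astrocytes had counts in every library, and their summed level ran from 738 CPM in P1 female 6 to 26650 CPM in adult male 4. The 24 neuronal markers were present as well, at a sum of 2084 CPM in P1 male 1 to 29610 CPM in P35 female 6, and only Slc17a6, a vesicular glutamate transporter gene, was at 0 counts in any library (1 library). Messages known from neurons were therefore in the pull-down. Messages of astrocytes and of other cells cannot be separated for any member, nor can fewer cells of a type be told apart from less RNA per cell.

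Promoter sequence is shown for 4 members, because Fos and Nr4a1 were the pair that varied most closely together between animals, Dusp1 was the member with a full CRE, and Jun was the member with a window and no CRE core. The RefSeq table of promoters (GRCm38.p6) held a window of 300 bases, from 250 before to 50 after the annotated start, for 7 members used here (Fos, Fosb, Jun, Junb, Npas4, Nr4a1 and Dusp1). Windows are printed 5′ to 3′ on the strand of the gene, and capitals mark TGACG (the core of the CRE) on either strand, which reads CGTCA on the opposite one, and the full CRE TGACGTCA, which holds the core on both strands. Fos lies at chr12:85473640-85473939 (+ strand), Nr4a1 at chr15:101266596-101266895 (+ strand), Dusp1 at chr17:26508423-26508722 (- strand) and Jun at chr4:95052173-95052472 (- strand).
Fos: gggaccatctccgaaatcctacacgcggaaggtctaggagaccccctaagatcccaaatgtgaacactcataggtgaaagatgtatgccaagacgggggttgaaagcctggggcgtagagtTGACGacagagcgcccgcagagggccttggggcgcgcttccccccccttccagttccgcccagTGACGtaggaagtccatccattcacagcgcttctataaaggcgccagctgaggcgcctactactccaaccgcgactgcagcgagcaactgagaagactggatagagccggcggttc
Nr4a1: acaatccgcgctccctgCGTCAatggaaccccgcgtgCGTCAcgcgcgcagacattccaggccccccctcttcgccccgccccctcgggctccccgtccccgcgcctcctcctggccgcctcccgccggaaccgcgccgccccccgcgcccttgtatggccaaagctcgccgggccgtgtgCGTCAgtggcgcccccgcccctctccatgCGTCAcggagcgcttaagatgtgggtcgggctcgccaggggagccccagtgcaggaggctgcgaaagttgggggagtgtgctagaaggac
Dusp1: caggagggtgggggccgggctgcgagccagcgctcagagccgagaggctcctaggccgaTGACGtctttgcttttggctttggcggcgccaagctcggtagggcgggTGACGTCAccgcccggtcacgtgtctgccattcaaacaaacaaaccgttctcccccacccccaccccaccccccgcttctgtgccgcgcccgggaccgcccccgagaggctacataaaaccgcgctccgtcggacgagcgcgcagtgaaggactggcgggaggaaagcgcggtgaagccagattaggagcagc
Jun: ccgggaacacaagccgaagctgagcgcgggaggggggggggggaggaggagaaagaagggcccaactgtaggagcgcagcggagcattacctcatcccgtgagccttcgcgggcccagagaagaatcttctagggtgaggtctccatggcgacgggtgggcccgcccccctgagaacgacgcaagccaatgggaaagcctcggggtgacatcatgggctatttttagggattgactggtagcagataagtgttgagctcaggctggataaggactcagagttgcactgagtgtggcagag

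The core TGACG was found on either strand in 6 of the 7 windows, against 20.8% of the 32851 windows in the table. Nr4a1 had 4 matches, at 233, 213, 69 and 40 bases before the annotated start, and Fos had 2, at 129 and 66 bases before it. The full CRE was found in Dusp1 alone of the 7, 143 bases before the start, against 1.79% of all windows. These starts are those of the RefSeq table. For Nr4a1 and Dusp1 they lie inside the wider gene spans given below, which come from GENCODE. No window held a match to the CArG box, against 1.63% of all windows. That match needed CC, 6 letters of A or T and GG with no mismatch, and bases outside the windows were not searched. A match describes these letters only, and binding was not measured.

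From P1 to adulthood, 9 of the 10 members rose, and Ier2 was the exception. Over all 21118 genes, 42.5% passed in this comparison and 22.3% were higher in adults. The median log2 change of the members was 3.02, against 0.063 over all genes. The largest fitted increases were those of Fosb, Arc, Junb and Npas4, and the smallest was that of Jun. Levels of Fosb, Junb and Dusp1 did not overlap between the 8 libraries of P1 and the 9 of adults, with the adults higher, as did those of 3.58% of all genes.

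**Figure D1:**
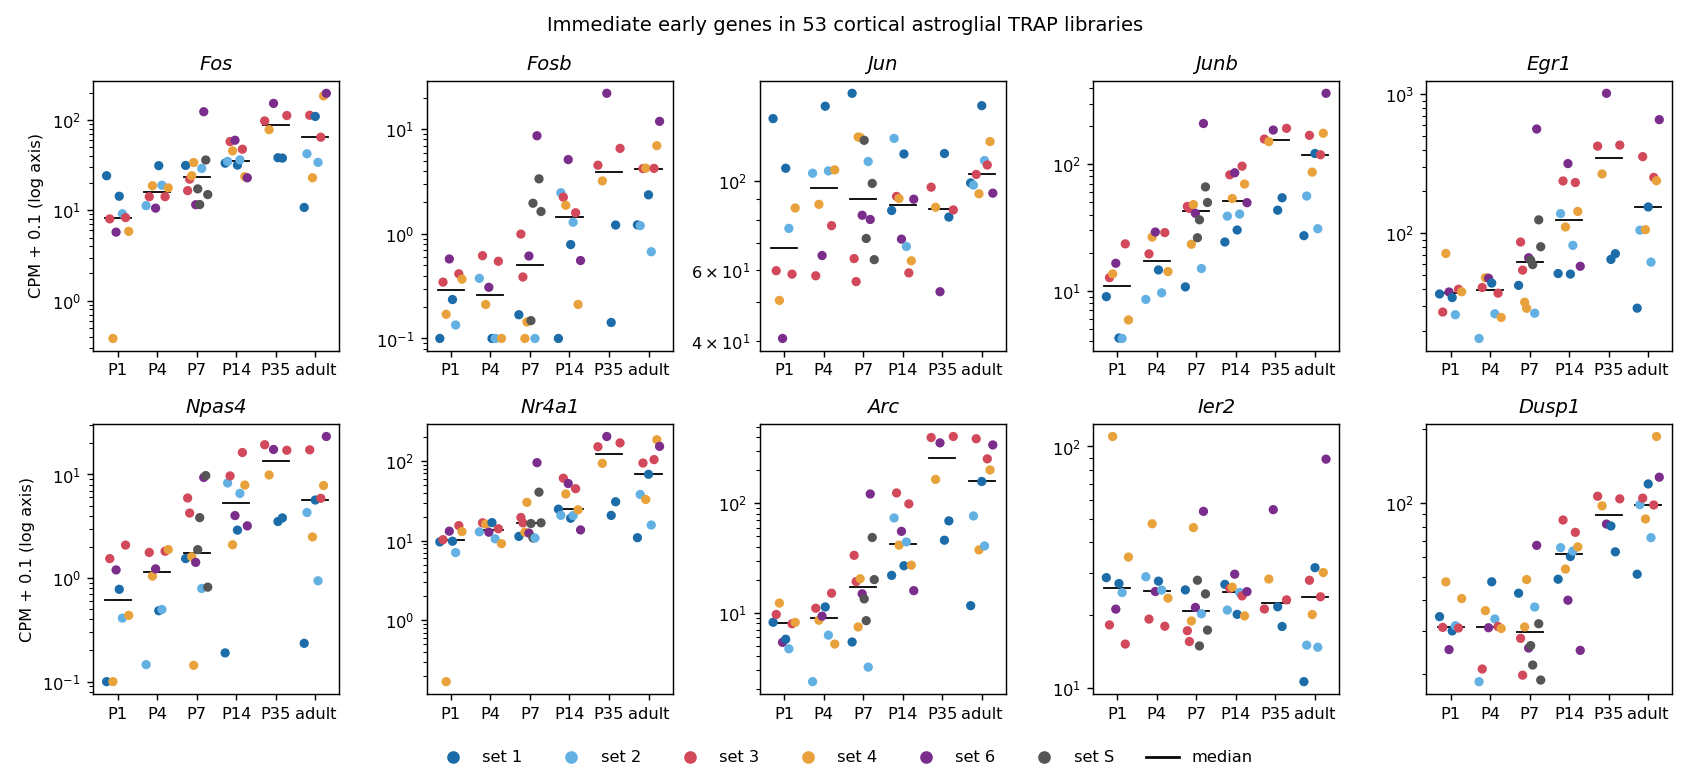
Level of each member in each of the 53 libraries, as CPM + 0.1 on a log axis, by age. Points are libraries, coloured by replicate set, and bars are medians. Fosb, Junb and Dusp1 in adults lie above every P1 library, Jun and Ier2 overlap at all ages, and within P35 the set 1 libraries lie low for Arc, Egr1 and Junb.

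Among the AP-1 members, Junb (chromosome 8, 84974484-84978718) encodes a Jun protein and showed the smallest adjusted p. It ran from 4.11 to 23.4 CPM at P1 (median 10.8) and from 27.1 to 362 CPM in adults (median 118). Every adult library stood above every P1 library, and the P4 range of 8.45 to 29.0 CPM (median 17.0) overlapped both. The fitted change was 3.51 ± 0.32 (log2 ± SE, adjusted p = 2.70e-12, edgeR), and adults were higher in 5 of the 5 sets that hold both ages. Set 6 held only 1 library of each.

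Fos (chromosome 12, 85473890-85477273), the partner of Jun proteins in AP-1, was between 0.281 and 24.1 CPM at P1 (median 8.07) and between 10.7 and 198 CPM in adults (median 64.4). The value of 0.281 CPM, 4 counts, belonged to P1 female 4, and the next library stood at 5.64 CPM. Adult female 1, at 10.7 CPM, lay within the P1 range, and 7 of the 9 adult libraries lay above it. Fos rose by 3.18 ± 0.50 (adjusted p = 1.03e-06, edgeR). Medians in between were 15.9 CPM at P4, 23.0 at P7, 35.4 at P14 and 87.8 at P35.

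Fosb (chromosome 7, 19302696-19310051), whose protein is known for accumulating with repeated stimulation, was the scarcest member. It had 41 counts in all at P1 (0 to 0.476 CPM, median 0.191) and 900 in adults (0.575 to 11.8 CPM, median 4.12). Its total was 0 in 7 libraries, of which 1 was at P1, 3 at P4, 2 at P7 and 1 at P14, and in them a count of 0 allows between 0.0631 and 0.134 CPM (3 counts, counting error only). The fitted rise was 4.51 ± 0.90 (adjusted p = 5.47e-05, edgeR), and with so few counts on the P1 side its size depends on the prior count.

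Jun (chromosome 4, 95049034-95052222) changed least among those that passed. P1 libraries held 40.6 to 142 CPM (median 67.9) and adult libraries 92.7 to 153 CPM (median 104), so only 1 adult library exceeded all of P1. The change was 0.57 ± 0.17 (adjusted p = 0.00558, edgeR). Without the replicate set in the model, the adjusted p was 0.0888 and the call was lost. Across all 6 ages Jun did not pass (adjusted p = 0.0522, edgeR), and leaving out any 1 of 7 libraries (adult females 1 and 2, P1 female 1, P14 female 2, P7 female 30, P14 male 6 or P7 male S2) brought this value under the threshold. It passed with DESeq2 size factors (adjusted p = 0.0368, edgeR), with DESeq2 (adjusted p = 0.023) and with limma voom (adjusted p = 0.0339).

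Egr1 (chromosome 18, 34859823-34864984) was the most abundant member per kilobase of exon, at a mean of 31.5 CPM per kb over all libraries. P1 libraries ran from 25.9 to 71.6 CPM (median 37.2) and adult libraries from 28.9 to 656 CPM (median 155). Adult female 1 held the 28.9 CPM and sat among the P1 values, with adult male 60 at the top. The rise was 2.09 ± 0.41 (adjusted p = 4.15e-05, edgeR). The highest Egr1 level of the series was in P35 female 6, at 1015 CPM, while P35 males 1 and 10 held 64.8 and 71.3 CPM.

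Npas4 (chromosome 19, 4984355-4990316) was at 0 to 1.98 CPM at P1 (median 0.508) and at 0.134 to 23.2 CPM in adults (median 5.57). It had no count in P1 females 1 and 4, which allows up to 0.121 and 0.211 CPM. Of the 9 adult libraries, 7 were above all of P1, and the lowest, adult female 1, held 3 counts. The rise was 3.40 ± 0.70 (adjusted p = 8.55e-05, edgeR).

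Nr4a1 (chromosome 15, 101254269-101274795) lay between 0.0703 and 15.4 CPM at P1 (median 10.0) and between 10.8 and 186 CPM in adults (median 68.2). Again P1 female 4 was lowest, with 1 count, and the next library stood at 7.00 CPM. In adults 8 of 9 libraries exceeded all P1 libraries. The fitted rise was 2.87 ± 0.48 (adjusted p = 2.57e-06, edgeR). The P35 median, 123 CPM, was above that of adults, and the difference between these ages did not pass.

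Arc (chromosome 15, 74669083-74672570) lay between 4.59 and 12.2 CPM at P1 (median 7.96). In adults it ran from 11.5 to 388 CPM (median 158), and 8 of 9 libraries exceeded all of P1. Adult female 1 was the exception, and within set 1, to which it belongs, it still lay above both P1 libraries (5.63 and 8.09 CPM). The rise was 4.13 ± 0.53 (adjusted p = 1.31e-08, edgeR), and all adult libraries exceeded all P1 libraries in 5 of 5 sets. In set 6 this was 1 library against 1.

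Dusp1 (chromosome 17, 26505590-26562128), the phosphatase, was at 25.1 to 47.5 CPM at P1 (median 31.2) and 51.0 to 186 CPM in adults (median 98.2), with no overlap. Its rise of 1.65 ± 0.22 passed (adjusted p = 3.45e-08, edgeR). Ier2 (chromosome 8, 84661331-84662852) had medians of 25.8 CPM at P1 and 23.7 CPM in adults, and no adult library exceeded the P1 maximum of 110 CPM in P1 female 4. Its fitted change was -0.25 ± 0.29 (adjusted p = 0.517, edgeR), and without P1 female 4 it turned to 0.12 (adjusted p = 0.719, edgeR).

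Per kilobase of exon, the mean levels over the 53 libraries fell into 3 ranges. Egr1, Jun, Junb and Arc stood at 31.5, 29.1, 27.5 and 24.2 CPM per kb. Fos, Ier2, Dusp1 and Nr4a1 followed at 18.2, 18.2, 17.0 and 11.7 CPM per kb, and Npas4 and Fosb were low at 1.15 and 0.329 CPM per kb. At P1 the order was led by Jun and Ier2 (24.3 ± 10.6 and 22.9 ± 20.3 CPM per kb, SD, n = 8), and Arc stood at 2.50 ± 0.82. In adults Junb and Arc led (55.3 ± 44.9 and 54.8 ± 45.2 CPM per kb, SD, n = 9), ahead of Egr1 at 48.6 ± 43.3, and these differ by less than their spread.

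The rise had no single step that passed. Across all 6 ages 8 of 10 members differed (not Jun or Ier2), against 45.3% of all genes. From one age to the next, 0 members passed in each of the 5 steps by edgeR, where the share of all genes that passed was 0.696% (P1 to P4), 0.72% (P4 to P7), 6.51% (P7 to P14), 1.32% (P14 to P35) and 0% (P35 to adult). At an unadjusted p under 0.05 the members numbered 2, 2, 6, 6 and 0 in the same order, against 12.8%, 11.8%, 20.5%, 15.4% and 4.25% of all genes. DESeq2 called 0, 1, 4, 2 and 0 members. Of all genes it called 631, 485, 2307, 712 and 16, of 16172, 18613, 19018, 16579 and 21061 with an adjusted p. With limma voom 0, 0, 2, 1 and 0 members passed, against 221, 240, 1874, 342 and 0 of 21118 genes.

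Arc and Dusp1 came nearest at P7 to P14, with changes of 1.48 ± 0.50 and 0.64 ± 0.21 (adjusted p = 0.0627 and 0.0589, edgeR). P7 male 6 was the highest P7 library for 8 of the 10 members, and the share of all genes highest in it was not counted. Its Arc level was 121 CPM, against 3.09 to 48.6 CPM in the other 11 P7 libraries, and its Egr1 level was 562 CPM against at most 125. Without that library 5 members rose from P7 to P14, namely Arc (2.13, adjusted p = 0.00130), Egr1 (1.57, 0.00283), Dusp1 (0.84, 0.00461), Junb (1.00, 0.00846) and Fosb (3.12, 0.00916), all by edgeR. Without P14 male 6, the passing members were Egr1, Arc and Dusp1. Over all 53 fits that left out 1 library, Dusp1 passed in 16 and Arc in 5 (without P7 male 6, P14 male 6, P1 female 4, P1 female 6 or P4 male 1). In these fits 856 to 2558 of all genes passed from P7 to P14, against 1375 in the main fit. P7 male 6 also held the highest summed oligodendrocyte markers of its age, 3060 CPM against a median of 345, and the highest neuronal markers, 19920 CPM against a median of 11590. Their part in its levels was not tested.

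From P14 to P35 the largest changes were those of Arc (1.72 ± 0.50, adjusted p = 0.0675, edgeR) and Nr4a1 (1.48 ± 0.46, adjusted p = 0.0894, edgeR). Arc ran from 15.8 to 124 CPM at P14 (median 42.8) and from 45.8 to 407 CPM at P35 (median 260). The P35 libraries split, with males 1 and 10 of set 1 at 45.8 and 68.9 CPM and the other 4 at 165 to 407 CPM. Without P35 male 1, P7 male 2, P14 female 2, P1 female 4 or P7 male 6, 1 at a time, Arc passed in this step, and without P1 female 4 Nr4a1 passed too (adjusted p = 0.0218, edgeR).

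Counted from P1, comparisons added after seeing the data, 3 members were higher by P7, where 13.8% of all genes passed and 8.27% were higher. By P14 8 members were higher (36.1% passed, 19.7% higher), and by P35 again 8 (38% passed, 20.1% higher). The 3 at P7 were Junb (1.84 ± 0.32, adjusted p = 4.57e-05), Fos (1.82 ± 0.49, 0.00860) and Jun (0.51 ± 0.17, 0.0400), by edgeR. Jun lost this call when any 1 of 23 libraries was left out and in 6 of the 10 alternative fits (adjusted p = 0.0549 to 0.37, edgeR). At P14 and at P35 the 8 were all members but Jun and Ier2. At P35 Arc, Fos, Junb, Npas4, Nr4a1 and Dusp1 did not overlap with P1, where 3.54% of all genes lay wholly higher, and the fitted Arc change was 4.37 ± 0.56. These comparisons share the P1 libraries.

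**Figure D2:**
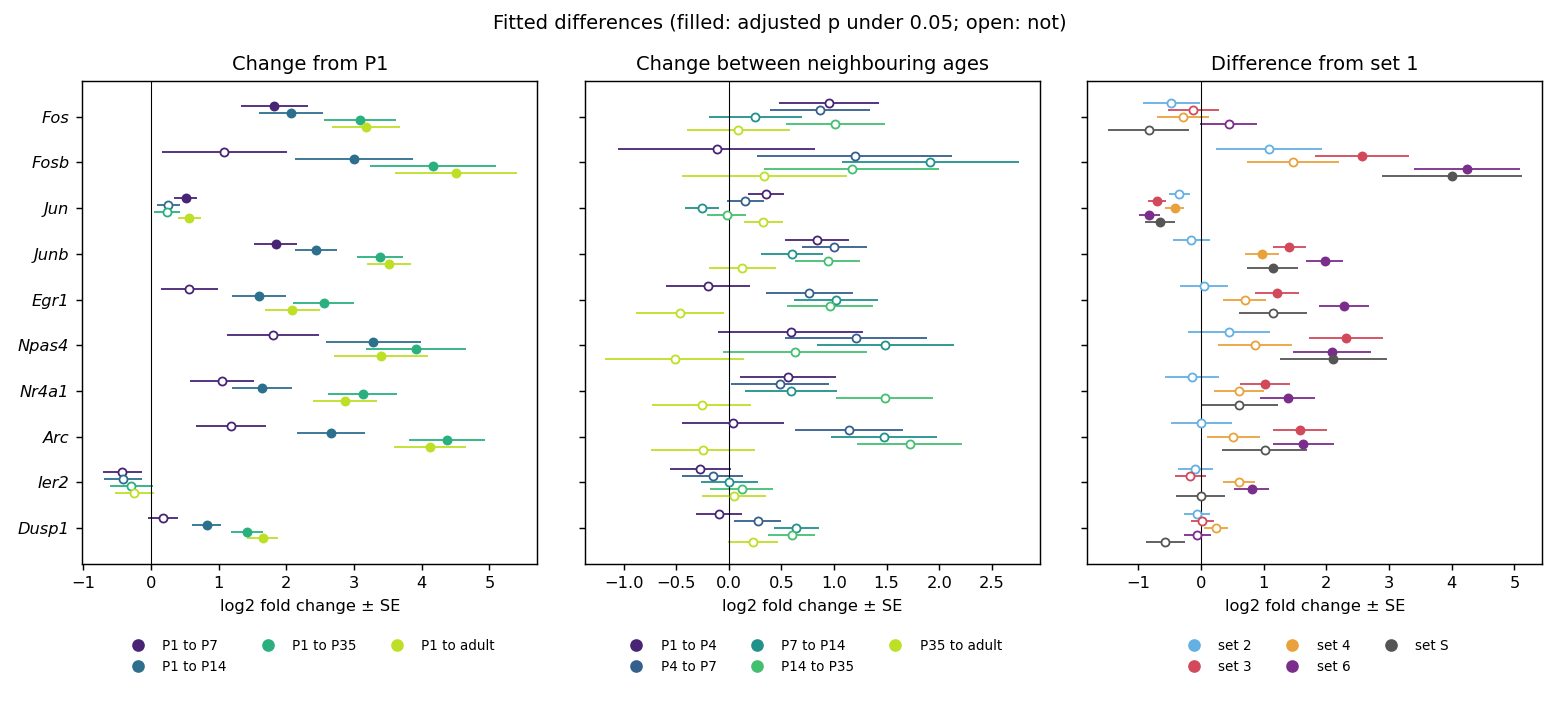
Fitted log2 differences of the 10 members with their standard errors, from P1 to each later age (left), between neighbouring ages (middle) and of each replicate set from set 1 (right). Filled points passed an adjusted p of 0.05 and open points did not. Changes from P1 grow toward P35 for 8 members, no neighbouring step is filled, and sets 3 and 6 lie to the right of set 1 for most members but not for Jun.

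Members also differed between replicate sets, as did most genes. With age in the model, 8 of 10 members differed between sets (not Fos or Dusp1), close to the 72% of all genes. Nr4a1 and Ier2 lost this call without the libraries whose description letter differs from the labelled sex (adjusted p = 0.0723 and 0.0511, edgeR). Set 6 stood above set 1 for 7 members and below it for Jun (39.7% of all genes passed, 20.3% higher and 19.4% lower), led by Fosb (4.24 ± 0.85, adjusted p = 6.52e-05), Egr1 (2.28 ± 0.40, 8.21e-06) and Npas4 (2.09 ± 0.62, 0.00609), by edgeR. Set 3 stood above set 1 for 6 members and below it for Jun (54.3% of all genes passed, 28.5% higher and 25.8% lower). In set S, 3 were higher and Jun lower (36.8% of all genes passed, 16.4% higher and 20.5% lower). In set 4 Junb was higher and Jun lower (21.8% passed, 11.7% higher and 10.1% lower). The counts of members that passed in sets S and 4 were close to the shares of all genes. Set 2 differed from set 1 in 0 members by edgeR (0.00947% of all genes passed), and 1, Jun, at an unadjusted p under 0.05 (6.08% of all genes).

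In CPM, Egr1 had a median of 47.3 in set 1 (28.9 to 155, n = 10) and of 192 in set 6 (37.8 to 1015, n = 8). Jun went the other way, with 117 in set 1 (81.1 to 164) and 75.8 in set 6 (40.6 to 93.0). Both pairs of ranges overlap. Dusp1 differed little, at 49.8 in set 1 (29.9 to 119) and 35.4 in set 6 (24.9 to 127), and its fitted difference was -0.06 ± 0.21.

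Cell type markers moved with the sets too. Neuronal markers were higher in set 6 than in set 1 for 23 of 24 genes and in set 3 for 22, while all 18 astrocyte markers were lower in both. The summed neuronal markers ran from 2084 to 6205 CPM in set 1 (median 3172), from 8032 to 14570 in set 3 (median 11340) and from 8655 to 29610 in set 6 (median 16850). Astrocyte markers summed to 4248 to 23970 CPM in set 1 (median 14860) and 738 to 4281 in set 6 (median 2403). Their part in the set differences of the members was not tested.

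**Figure D3:**
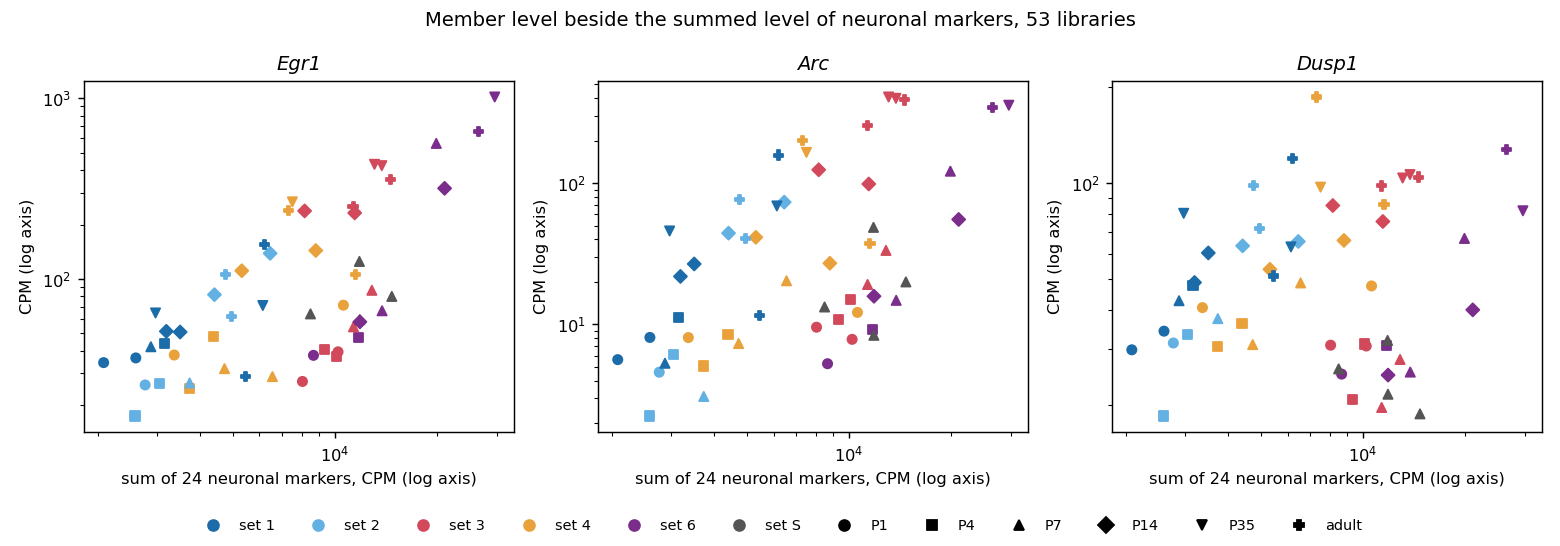
Levels of Egr1, Arc and Dusp1 against the summed level of 24 neuronal markers in each of the 53 libraries, in CPM on log axes, with colour for the replicate set and marker shape for age. Set 1 libraries lie at 2084 to 6205 CPM of neuronal markers and set 6 libraries at 8655 to 29610 CPM, and in set 6 the P35 and adult libraries lie highest in Arc.

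The age change was also compared within sets. In each of the 5 sets with libraries of both ages, the mean log2 level of Fos, Fosb, Junb, Egr1, Npas4, Nr4a1, Arc and Dusp1 was higher in adults than at P1. Set 6 held 1 P1 and 1 adult library, and set 2 held 1 and 2. How many of all genes were higher in all 5 sets was not counted. For Junb the differences ran from 3.04 to 4.46, for Arc from 2.65 to 5.99, and for Dusp1 from 1.28 to 2.34. Jun was higher in adults in 4 of the 5 sets, with a difference of -0.01 in set 1, and Ier2 in 2 of the 5. Marker levels are given beside this by the edgeR comparison of P1 with adults, where 42.5% of all genes passed and 22.3% were higher. From P1 to adulthood 17 of 18 astrocyte markers rose (median 2.53), 10 of 10 oligodendrocyte markers rose (median 3.67), and of 24 neuronal markers 16 rose and 6 fell (median 1.29). Summed oligodendrocyte markers ran from 110 to 294 CPM at P1 and from 813 to 2489 CPM in adults, and Opalin, a myelin gene, was at 0 in 10 libraries. Neuronal sums ran from 2084 to 10600 CPM at P1 and from 4771 to 26560 CPM in adults. Of 12 microglial markers 5 rose, and of 12 endothelial and mural markers 3 rose and 2 fell. Their part in the rise of the members was not tested.

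Libraries differed widely in some members beyond the separate terms of age and set. An age held at most 2 libraries of a set, save the 4 of set S at P7. What is left after these terms also holds differences between sets in the age change. From P1 to adulthood the mean log2 change of Egr1 was 0.91 in set 1 and 4.12 in set 6, and that of Dusp1 1.28 and 2.34. After age and set were removed, the SD of log2 CPM was 1.42 for Npas4, 1.39 for Fosb, 1.20 for Nr4a1, 1.11 for Fos and 1.03 for Arc. It was lowest for Jun (0.35), Dusp1 (0.45) and Ier2 (0.57). The median over the members was 0.94, against 0.86 over all genes and 0.51 over the 12076 genes of at least 5 CPM. The edgeR dispersion of Arc was 4.30 times the value fitted for genes of its abundance, and that of Egr1, Fos and Nr4a1 3.41, 3.40 and 3.21 times. The median ratio was 2.17 over the members and 0.95 over all genes. Npas4 and Fosb had 0 counts in 2 and 7 libraries, and P1 female 4 held 4 counts of Fos and 1 of Nr4a1. Within P1, with set not removed, the SD of log2 CPM was 1.80 for Fos and 2.22 for Nr4a1. At P4 these were 0.50 and 0.32.

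The same animals stood out for many members. In adults, adult female 1 was lowest for 8 of 10 members and adult male 60 highest for 6. At P35, male 1 was lowest for 6 and female 6 highest for 5. P14 male 6 was lowest for 4 members at its age, with Arc at 15.8 and Dusp1 at 24.9 CPM, while P14 female 6, of the same set, was highest for 4. The shares of all genes that were lowest or highest in these libraries were not counted.

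Members rose and fell together between libraries once age and set were removed as separate terms. These residuals also hold differences between sets in the age change. Of the 45 pairs, 44 had a positive Pearson r over the 53 libraries, and 34 passed (all positive, permutation test of the refitted residuals with 100000 resamples, two-sided, Benjamini-Hochberg over 45 pairs). By Spearman's rho 38 pairs passed. The median r was 0.44 and the median rho 0.45. Leaving out the 2 libraries farthest from the median of the first gene left 44 positive pairs and a median r of 0.45. The share of pairs of all genes that would pass was not computed, so these counts have no background beside them.

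The closest pair was Fos and Nr4a1 (r = 0.91, rho = 0.87, permutation p = 1e-05, the smallest these resamples can give, adjusted p = 5e-05). Egr1 and Arc followed (r = 0.86, rho = 0.82, permutation p = 1e-05, adjusted p = 5e-05), then Arc and Dusp1 (r = 0.78, rho = 0.73, permutation p = 1e-05, adjusted p = 5e-05). Without the 2 libraries farthest from the median of the first gene, r was 0.87, 0.81 and 0.70 for these 3 pairs, and within the 5 sets each stayed at 0.54 or above. In P1 female 4, Fos and Nr4a1 had 4 and 1 counts, and Fosb and Npas4 had 1 and 0. Among the 28 pairs without Jun or Ier2, 27 passed, the exception being Fosb with Dusp1 (r = 0.31, rho = 0.19, permutation p = 0.0448, adjusted p = 0.0576). Jun passed with 3 of 9 others, Fos, Nr4a1 and Dusp1, and Ier2 with 4 of 9, Egr1, Arc, Dusp1 and Junb. Jun and Fosb showed the lowest r, -0.04 (rho = 0.003, permutation p = 0.795, adjusted p = 0.813).

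Within ages, the median r of the 45 pairs was 0.84 in adults (n = 9), 0.63 at P7 (n = 12), 0.56 at P35 (n = 6), 0.53 at P14 (n = 10), 0.47 at P4 (n = 8) and 0.19 at P1 (n = 8). Within sets it was 0.82 in set 6 (n = 8), 0.66 in set 1 (n = 10), 0.49 in set 2 (n = 8), 0.33 in set 3 (n = 12) and 0.13 in set 4 (n = 11). Of the 34 pairs that passed, 16 had a positive r in all 5 sets of at least 6 libraries. The differences between ages and between sets in these medians were not tested. P1 and set 4, with the lowest medians, both hold P1 female 4, the library with the fewest genes of at least 10 counts. The r of Nr4a1 with Ier2 was -0.78 at P1 and -0.56 in set 4. These medians were not computed without that library.

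**Figure D4:**
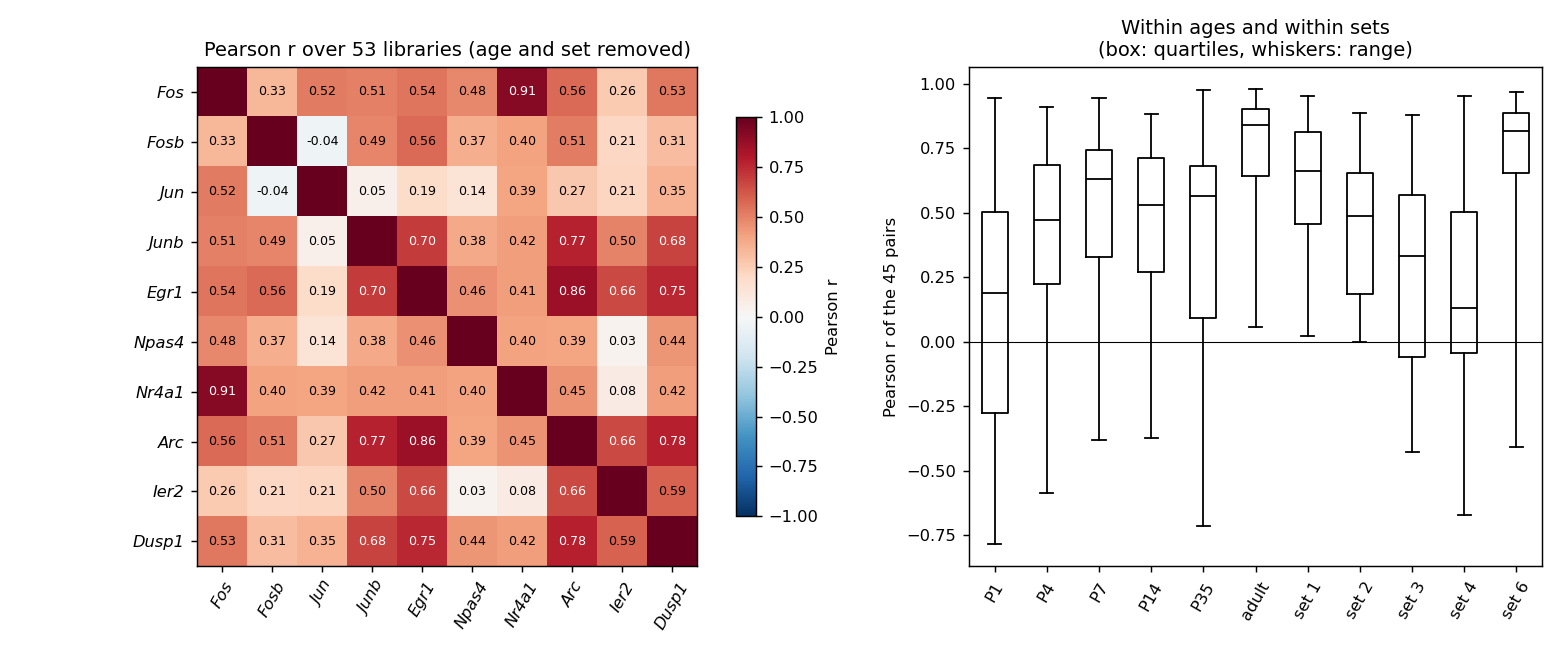
Pearson r between the 10 members over 53 libraries after age and replicate set were removed (left), and the 45 pairwise r within each age and each set of at least 6 libraries (right; box, quartiles and median; whiskers, range). The pairs of Fos with Nr4a1 (0.91) and Egr1 with Arc (0.86) stand highest, the row of Jun is palest, and the box of adults lies above that of P1. P1 and set 4 both hold P1 female 4.

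Other readouts varied with the members in the same residuals (40 relations of the 10 members with 4 list scores, permutation test, Benjamini-Hochberg over 40). The score of oligodendrocyte markers passed with 8 members, all positive (median r 0.53 over the 10), and was highest for Egr1 (r = 0.71, rho = 0.63, permutation p = 2e-05, adjusted p = 0.0004). The neuronal score passed with Fosb, Egr1 and Junb (positive) and with Jun (negative, r = -0.35, rho = -0.37, permutation p = 0.0208, adjusted p = 0.0461). The score of mature astrocytes and that of heat shock genes each passed with Fos, Jun and Nr4a1. These counts are by Pearson's r, and the share of all genes that would pass with these scores was not computed. By Spearman's rho no relation with the astrocyte or heat shock score passed, nor did those of Jun and Egr1 with the neuronal score or of Junb and Dusp1 with the oligodendrocyte score. Without the 2 libraries farthest from the median score, the r of Fos with the astrocyte score went from 0.45 to 0.30. Within sets the r of Egr1 with the oligodendrocyte score ran from 0.05 to 0.94.

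Of 11104 other genes of at least 5 CPM, those whose residuals followed the members' mean score most closely were Sept8 (r = 0.76), Egr2 (0.74), Ttc7b (0.72), Zbtb7a (0.71), Chn1 (0.71), Dusp14 (0.70), Rgs7bp (0.69), Rabl6 (0.69), Mbnl2 (0.68) and Btg2 (0.68), over 53 libraries. Egr2, a zinc finger factor related to Egr1, and Btg2, an antiproliferative gene, belong to the list of other immediate early genes, which had 4 of the 50 closest genes and 7 of the 200 closest. Its 32 candidates had a median r of 0.28, against 0.04 over all candidates.

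Other lists were read against the 42.5% of all genes that passed from P1 to adulthood and the 22.3% that were higher. Of 38 other immediate early genes, 17 rose and 4 fell from P1 to adulthood (median log2 change 0.50, against 0.063 over all genes). Egr4, another Egr factor, went from 4.89 ± 3.68 CPM (SD, n = 8) to 65.3 ± 46.9 CPM (SD, n = 9), and Gadd45g, a stress response gene, from 34.5 ± 13.5 to 154 ± 84.4 CPM. Per1, a clock gene, rose by 1.80 ± 0.26 (adjusted p = 1.21e-07, edgeR). Myc fell by 2.79 ± 0.30 (adjusted p = 1.26e-10, edgeR), from 73.0 ± 55.5 to 9.56 ± 2.49 CPM.

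Among 26 kinases and factors that act upstream, 10 rose and 1 fell (median 0.17), and the share that passed was close to the 42.5% of all genes. The smallest adjusted p was that of Camk2a, a calcium-dependent kinase also listed as a neuronal marker (3.97 ± 0.35, adjusted p = 7.40e-13, edgeR). Mkl2, a coactivator of serum response factor, rose by 1.96 ± 0.23, Map2k1, a MAP kinase kinase, by 2.08 ± 0.32, and Camk4, a nuclear calcium-dependent kinase, by 0.99 ± 0.19. Of 16 genes that follow later after activity, 10 rose and 2 fell (median 1.44). Nrn1, Nptx1, Rgs4 and Bdnf had changes of 3.38 ± 0.35, 3.67 ± 0.55, 1.80 ± 0.28 and 2.14 ± 0.37, and all 4 passed. Of 14 heat shock and stress genes, which can respond to handling of tissue, 7 rose and 2 fell (median 0.50). Hspb8, Ddit3 and Hspa1a rose, and Dnaja1 fell by 0.80 ± 0.17 (adjusted p = 9.18e-05, edgeR).

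Between labelled sexes, 0 members differed as a mean over ages by edgeR, with 3 at an unadjusted p under 0.05 (Junb, Npas4 and Dusp1, all lower in females), 0 by DESeq2 and 0 by limma voom. Of all genes 0.0237% passed, and 1.71% were under 0.05 unadjusted. The differences were -0.36 ± 0.16 for Junb, -0.74 ± 0.37 for Npas4 and -0.25 ± 0.12 for Dusp1. The change from P1 to adulthood differed between sexes in 0 members by edgeR (1 at an unadjusted p under 0.05, Ier2) and in 0% of all genes, a comparison added after seeing the data. The 7 libraries whose sex-linked genes went against the label stayed in their labelled groups.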

How the data were processed

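The deposited values are raw counts per gene, whole numbers that the authors made with CASAVA, HISAT2, SAMtools and featureCounts on GRCm38.p5, per the submitters' processing notes. The sources used here give no tool versions, annotation release, strand setting or gene filter, so reads shared with overlapping or antisense genes are uncertain. At P7, 4 animals sequenced in 2 runs (P7 female 6, P7 female 10, P7 male 2 and P7 male 6) have 1 column each. The alternative without the second-run libraries left out set S only and kept these 4. The test was the robust quasi-likelihood fit of edgeR 4.0.16 (R 4.3.3; TMM scaling, age and replicate set as terms, 53 libraries). DESeq2 1.42.0 and limma 3.58.1 (voom) were alternatives, with other library subsets, a filter on low counts and each library left out in turn. Gene positions came from GENCODE M21 (GRCm38), which held 21033 of the 21118 identifiers.

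Correlations used residual log2 CPM (prior count 2). Simulated data showed that permuting residuals alone passed too many unrelated pairs, so age and set were refitted to each permuted vector. That change was made after the first results were seen and moved the count of pairs that passed from 35 to 34. Of each list, up to 4 genes with the smallest adjusted p were named, and the 10 genes most like the members' score. Members and lists were chosen with earlier results of these data known.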

Additional observations from a re-analysis of the deposited data

Results flagged for a closer look

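Within single ages of 6 to 10 animals, 50 groups of member values were searched for 1 library far from the rest, where chance flags about 1 in 20, and 5 were found. P1 female 4, the library with the fewest genes of at least 10 counts, accounts for 4 of them. It held 0.281 CPM of Fos (next library 5.64 CPM) and 0.0703 CPM of Nr4a1 (next 7.00 CPM), the lowest at P1. It held 71.6 CPM of Egr1 (next 39.5 CPM) and 110 CPM of Ier2 (next 34.7 CPM), the highest at P1. The fifth is P14 female 1, with 0.0896 CPM of Npas4 against 2.00 CPM in the next library. The part of library quality in these values was not tested. P7, with 12 animals, was outside this search.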

How the results depend on the processing

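From P1 to adulthood 9 members passed in every alternative run except that without the replicate block (8, Jun lost), and in all 53 fits that left out 1 library. Ier2 turned from -0.25 to 0.10 without the 3 libraries of fewest genes and to 0.12 without P1 female 4, and lay between -0.49 and 0.12 without single libraries. The steps between ages depended most on the processing. From P4 to P7 the main count of 0 became 4 with set S merged by digit into sets 1 and 2, 1 with 12 groups of sex and age and 1 with DESeq2. Merging the sets, or leaving out the block, lets the 4 libraries of set S enter the P7 level, which they do not in the main fit. From P7 to P14 it became 1 without the replicate block, 1 with the merged sets, 2 with DESeq2 size factors, 4 with DESeq2, 2 with limma voom, 1 after a filter on low counts, 1 without the second-run libraries, 2 without the 3 libraries of fewest genes and 0 to 5 without single libraries. From P14 to P35 it became 1 with 12 groups, 2 with DESeq2, 1 with limma voom, 2 without the 3 libraries of fewest genes and 0 to 2 without single libraries. From P1 to P7 the count of 3 became 6 with the merged sets, 5 with 12 groups, 4 with DESeq2, 2 after the filter on low counts, 2 without libraries of a differing description letter and 2 to 3 without single libraries. Across all ages the 8 members became 9 with DESeq2 size factors, DESeq2 and limma voom, and between sets the 8 became 6 without libraries of a differing letter. The cause of these changes was not tested.

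Counts over all genes moved more. From P1 to P4, 147 genes passed, against 0 without the replicate block and 631 with DESeq2. From P4 to P7, 152 passed, against 7 without the block and 2120 with the merged sets. From P7 to P14, 1375 passed, against 379 without libraries of a differing description letter and 5620 with the merged sets, and 63.9% of calls were higher with DESeq2 size factors against 49.5%. From P14 to P35, 279 passed, against 5 without the block and 1073 without the 3 libraries of fewest genes. From P1 to P7, P14 and P35, 2905, 7619 and 8032 passed, against 1567, 4585 and 4976 without the block. From P35 to adult, 16 passed with DESeq2 against 0. Between sexes, 10 passed without libraries of a differing letter and 8 without those whose sex-linked genes went against the label, against 5.

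The replicate number does not pair all libraries. Residuals of same-set pairs correlated at a median of 0.35, with 201 of 223 over 0.1, against -0.08 for 1055 pairs of different sets. Between 29 and 38 pairs of members passed in the correlation under all alternatives and 31 to 36 without single libraries. Fosb and Npas4 are limited by depth, since 3 counts equal 0.0617 to 0.334 CPM.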
